A study of Mus musculus with 12 samples.

Results

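The TGF-beta receptors and SMADs were followed here through 9 genes: the ligand Tgfb1, the receptors Tgfbr1 and Tgfbr2, the transducers Smad2, Smad3 and Smad4, the inhibitory Smad7, and the corepressors Ski and Skil. Every probe set of 3 Affymetrix array types (U74Av2, U74Bv2 and U74Cv2) whose only annotated symbol was one of these genes was taken. This gave 16 of 36701 probe sets and 9 of 15964 named genes. No probe set of these genes was left out for its values, but the genes themselves were chosen with earlier results of these data known. Thymocyte RNA of H-2b AND-TCR–transgenic mice was set against that of C57BL/6 mice, which carried no transgene and served as the wild type. The AND TCR recognizes a peptide bound to MHC class II. The study calls the transgenic thymocytes positive selectors in the H-2b background, which is also the MHC type of C57BL/6 mice. Such selection leads mainly to the CD4 lineage. The RNA came from total adult thymocytes, unsorted by stage, so each value is a mean over all stages in the thymus. Each group was hybridized 2 times to each array type, which the study's methods call independent experiments, but the sources used here do not say whether the first and second hybridizations came from separate mice. The p-values therefore measure only the spread between hybridizations, which may be technical.

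TGF-beta is secreted in a latent form and, once released, binds the type II receptor TGFBR2, which recruits and phosphorylates the type I receptor TGFBR1. TGFBR1 then phosphorylates SMAD2 and SMAD3, which join SMAD4 and enter the nucleus. SMAD7 blocks the type I receptor, and SKI and SKIL hold back SMAD-driven transcription. In the thymus and in peripheral T cells of mice, signals through TGFBR2 are known to restrain T cell activation and to take part in forming regulatory T cells.

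Of the member genes only Tgfbr2 passed the test across all probe sets, at 2.11-fold higher in AND-TCR–transgenic thymocytes. The 250 bases upstream of its annotated start are shown together with those of Tgfbr1, the gene of its partner receptor, which did not pass the test. Both were read from the RefSeq annotation of GRCm38.p6 and are written 5′ to 3′ on the strand of the gene, Tgfbr2 at chr9:116175364-116175613 on the minus strand and Tgfbr1 at chr4:47352972-47353221 on the plus strand. Capitals mark matches, on either strand, to the SMAD box CAGAC, a short element that SMAD3 and SMAD4 can bind, and to the GC box GGGCGG, an element of the SP1 family.
Tgfbr2: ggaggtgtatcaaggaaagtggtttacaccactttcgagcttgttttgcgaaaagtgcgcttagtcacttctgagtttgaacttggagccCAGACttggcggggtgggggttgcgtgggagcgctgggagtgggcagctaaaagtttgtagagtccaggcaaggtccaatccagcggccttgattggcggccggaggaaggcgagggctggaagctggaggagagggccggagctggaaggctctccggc
Tgfbr1: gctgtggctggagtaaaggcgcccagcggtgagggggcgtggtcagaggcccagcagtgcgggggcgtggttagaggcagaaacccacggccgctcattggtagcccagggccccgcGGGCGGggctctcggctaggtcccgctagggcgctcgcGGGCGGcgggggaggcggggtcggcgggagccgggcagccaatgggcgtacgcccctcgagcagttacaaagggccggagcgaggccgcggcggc
The Tgfbr2 window held 1 SMAD box, with its first base at position -160 from the start, and 0 GC boxes. The Tgfbr1 window held 0 SMAD boxes and 2 GC boxes, at positions -133 and -95. No match of one motif overlapped a match of the other. A second annotated start of Tgfbr1, not printed, had 1 SMAD box at position -203 of its own window. Among 32851 such windows of mouse genes, 42.2% held a SMAD box and 32.7% a GC box, so neither motif was rare. The GC content was 58.4% in the Tgfbr2 window and 74.8% in the Tgfbr1 window, beside a median of 52.4%. The matches describe letters in these windows and were not linked to the array values.

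The arrays gave linear intensities, and negative readings made up 20.1% to 37.8% of an array. From these a detection limit was set, which was 420.8 on U74Av2, 869.4 on U74Bv2 and 1579 on U74Cv2, and 23.2% to 48.9% of an array's readings exceeded it. A probe set was tested with limma when both arrays of at least 1 group were above the limit, which held for 12844 probe sets, and p-values were adjusted by the Benjamini-Hochberg method over all of them. A probe set was called at an adjusted p under 0.05, and fold changes are AND-TCR–transgenic over C57BL/6 on the log2 scale. The label of the cells was borne out by thymocyte markers (the CD3 chains, Cd4, Cd8a, Thy1 and others), of which 12 of 14 tested probe sets were above the limit on all 4 arrays. The groups differed in 2 further respects that cannot be told apart from the transgene. Fluidics module 4 had washed every AND-TCR–transgenic array and module 2 every C57BL/6 array. Sex-linked genes differed as well, and the labels do not give the sex of the mice. Xist, the RNA that coats the inactive X chromosome, read -52.8 and -98.6 in AND-TCR–transgenic thymocytes and 2878.4 and 3001.2 in C57BL/6 thymocytes on U74Av2. The Y-linked gene Eif2s3y read 1649.2 and 1528.8 in AND-TCR–transgenic thymocytes and -109.9 and 13.0 in C57BL/6 thymocytes. A Xist probe set on U74Bv2 did not show this difference. It read 416.6 and 1190.4 in AND-TCR–transgenic thymocytes and 562.8 and 357.3 in C57BL/6 thymocytes, above the limit on 1 array.

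Of the 16 member probe sets, 11 passed the filter on low values, and these covered all 9 genes. Of these, 10 exceeded the limit on every array, and Smad7 exceeded it on both arrays of AND-TCR–transgenic thymocytes and on 1 of C57BL/6 thymocytes. Limma called 1 of the 11 higher (9.09%) and 0 lower, while over all tested probe sets it called 0.483% higher and 0.568% lower. At an unadjusted p under 0.05, 5 of the 11 were higher (45.5%) and 0 were lower, beside 7.47% higher and 6.51% lower over all tested probe sets. The 2 arrays of each group did not overlap for 8 probe sets, 7 with the AND-TCR–transgenic arrays higher (63.6%, against 23.0% of all tested probe sets) and 1 with them lower (against 21.4%). The median log2 fold change of the 11 was 0.43, against 0.02 over all tested probe sets, and was 0.35 in the first and 0.52 in the second hybridizations. These counts describe a short list whose probe sets are not independent, since Ski and Smad4 each had a pair of them. Smad7, counted among the higher ones, passed the filter only through the AND-TCR–transgenic arrays, which favors a positive fold change. The genes were also chosen with earlier results of these data known, so the shares are descriptions only.

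**Figure D1:**
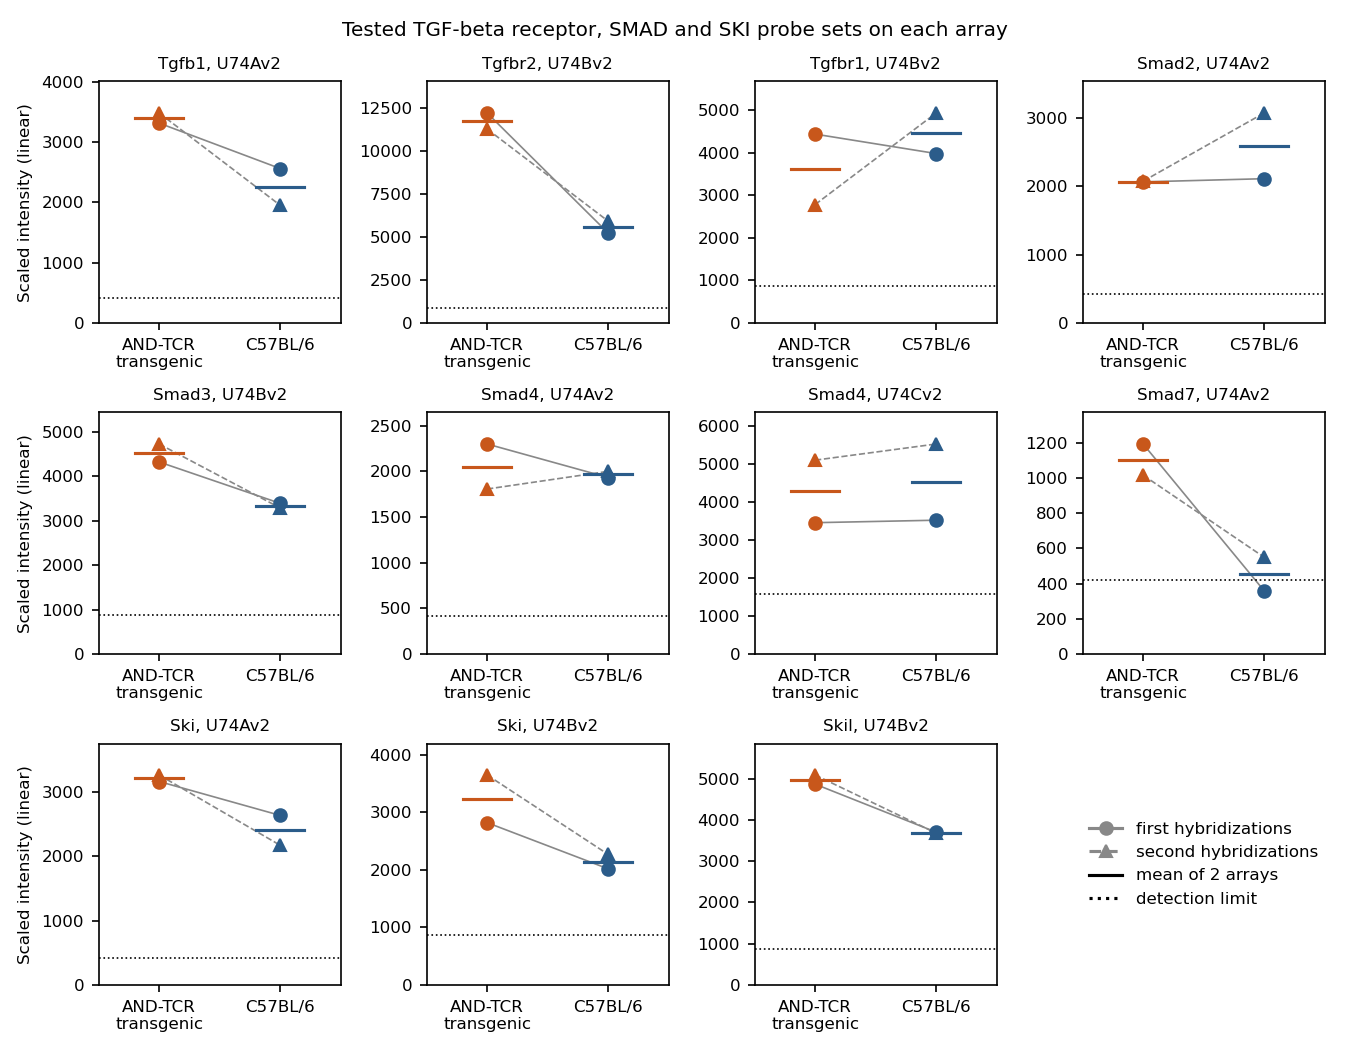
Scaled intensity (linear axis) of the 11 tested probe sets on each array, with AND-TCR–transgenic arrays left and C57BL/6 arrays right in each panel; circles and solid lines are first hybridizations, triangles and dashed lines second ones, bars are means of 2 arrays and the dotted line is the detection limit. Tgfbr2 lies at 12208.9 and 11275.2 in AND-TCR–transgenic thymocytes, against 5231.6 and 5923.6 in C57BL/6 thymocytes, and only Smad7 has an array under the limit.

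Tgfbr2 encodes the receptor that binds TGF-beta first and starts the signal. Its U74Bv2 probe set read 12208.9 and 11275.2 in AND-TCR–transgenic thymocytes and 5231.6 and 5923.6 in C57BL/6 thymocytes, so that both AND-TCR–transgenic arrays lay far above both C57BL/6 arrays. The means were 11742 ± 660 in AND-TCR–transgenic thymocytes and 5578 ± 489 in C57BL/6 thymocytes (SD, n = 2 hybridizations each). The log2 fold change was 1.08 (standard error 0.12, 95% interval 0.78 to 1.38, adjusted p = 0.0295 from limma), with ratios of 2.33 in the first and 1.9 in the second hybridizations. A higher log2 fold change was found for 1.89% of the tested probe sets. The call was lost when the prior variance of limma was given no trend with intensity (adjusted p = 0.121). That setting called only 1 probe set higher and 9 lower in the whole series. The call was also lost when any 1 of the 4 hybridizations was left out. A group then kept 1 array, and every other call of the series was lost as well, so this is not particular to Tgfbr2. The log2 fold change of Tgfbr2 stayed between 0.99 and 1.17. A second Tgfbr2 probe set, on U74Av2, read 124.4 and -38.2 in AND-TCR–transgenic thymocytes and 96.5 and -29.5 in C57BL/6 thymocytes, under the limit on every array, and was not tested. The higher reading of Tgfbr2 thus rests on 1 probe set.

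Tgfbr1 encodes the kinase that passes the signal on to the SMADs, and it was not called. On U74Bv2 it read 4442 and 2785.6 in AND-TCR–transgenic thymocytes and 3984.6 and 4938.2 in C57BL/6 thymocytes. The groups overlapped, and the log2 fold change was 0.16 in the first and -0.83 in the second hybridizations. The fitted log2 fold change was -0.33 (standard error 0.27, 95% interval -1.0 to 0.33, adjusted p = 0.653 from limma). The fold change of Tgfbr2 exceeded that of Tgfbr1 by 1.41 on the log2 scale, by 1.07 in the first and 1.75 in the second hybridizations. With 2 arrays per group the two-sided exact permutation test of this difference gave p = 0.333, the smallest that the design allows. A Tgfbr1 probe set on U74Av2 read 513.4 and 371.3 in AND-TCR–transgenic thymocytes and 259.9 and 366.6 in C57BL/6 thymocytes, above the limit on 1 array, and was not tested.

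Tgfb1, the main TGF-beta of lymphoid cells, read 3313.4 and 3481.2 in AND-TCR–transgenic thymocytes and 2561.0 and 1952.2 in C57BL/6 thymocytes on U74Av2. The arrays of the groups did not overlap. Its log2 fold change was 0.60 (standard error 0.22, 1.52-fold), which did not pass the test after adjustment (unadjusted p = 0.0269, adjusted p = 0.282 from limma). It was 0.37 in the first and 0.83 in the second hybridizations. Tgfb2 and Tgfb3, the other ligands of the same receptors, were under the limit on every array in all their 3 probe sets.

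The receptor-regulated SMADs had fitted values of opposite sign, and neither passed the test. Smad3, on U74Bv2, read 4316.9 and 4721.1 in AND-TCR–transgenic thymocytes and 3387.1 and 3283.5 in C57BL/6 thymocytes, with no overlap (log2 fold change 0.44, standard error 0.16, 1.35-fold, adjusted p = 0.31 from limma). Smad2, on U74Av2, read 2061.3 and 2071.4 in AND-TCR–transgenic thymocytes and 2107.9 and 3067.4 in C57BL/6 thymocytes. Both AND-TCR–transgenic arrays of Smad2 were lower, but its first pair of arrays differed by only -0.03 on the log2 scale and the second by -0.57 (fitted value -0.30, 95% interval -0.9 to 0.3, adjusted p = 0.669 from limma). A further probe set of each gene, Smad3 on U74Av2 with readings between 197.5 and 418.4 and Smad2 on U74Cv2 with readings between -368.7 and 251.0, was under the limit on all 4 arrays.

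Smad4, the SMAD that all branches of the pathway share, had a small fitted difference on either array type. On U74Av2 it read 2298.5 and 1805.7 in AND-TCR–transgenic thymocytes and 1931.7 and 1999.4 in C57BL/6 thymocytes (log2 fold change 0.05, 95% interval -0.53 to 0.64). On U74Cv2 it read 3451.7 and 5094.9 in AND-TCR–transgenic thymocytes and 3516.7 and 5519.6 in C57BL/6 thymocytes (log2 fold change -0.07, 95% interval -1.01 to 0.87). The U74Cv2 readings followed the hybridization rather than the group, since the second array of either group was higher than the first. The adjusted p from limma was 0.953 on U74Av2 and 0.96 on U74Cv2, and the intervals include differences in either direction.

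Smad7, the feedback inhibitor that TGF-beta itself induces, read 1193.6 and 1016.4 in AND-TCR–transgenic thymocytes and 359.6 and 550.3 in C57BL/6 thymocytes on U74Av2. One C57BL/6 array was under the limit and was set to it, so the fold is a bound. Smad7 was at least 2.29-fold higher in AND-TCR–transgenic thymocytes, with a fitted log2 value of 1.19 (standard error 0.31) that did not pass the test after adjustment (unadjusted p = 0.00631, adjusted p = 0.154 from limma). The first hybridizations gave 1.5 and the second 0.89. With the limit raised to 4 SDs of the noise in place of 2, the fitted value was 0.39 (adjusted p = 0.305 from limma), because the higher floor also raised the C57BL/6 readings. Its fitted value was above that of Tgfbr2, but its standard error was larger as well.

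Ski and Skil encode related corepressors that bind SMAD complexes on DNA. Ski read 3164.8 and 3265.9 in AND-TCR–transgenic thymocytes and 2637.8 and 2173.5 in C57BL/6 thymocytes on U74Av2. On U74Bv2 Ski read 2820.7 and 3648.8 in AND-TCR–transgenic thymocytes and 2018.8 and 2269.3 in C57BL/6 thymocytes. In both probe sets the groups did not overlap, with log2 fold changes of 0.43 (adjusted p = 0.418) and 0.58 (adjusted p = 0.375 from limma). Skil, on U74Bv2, read 4863.2 and 5085.3 in AND-TCR–transgenic thymocytes and 3700.9 and 3678.6 in C57BL/6 thymocytes. Its hybridizations lay close together within each group (log2 fold change 0.43, standard error 0.14, 1.35-fold, unadjusted p = 0.0259, adjusted p = 0.278 from limma). The Skil probe set on U74Av2 read between -381.6 and 234.4 and was under the limit on all 4 arrays.

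**Figure D2:**
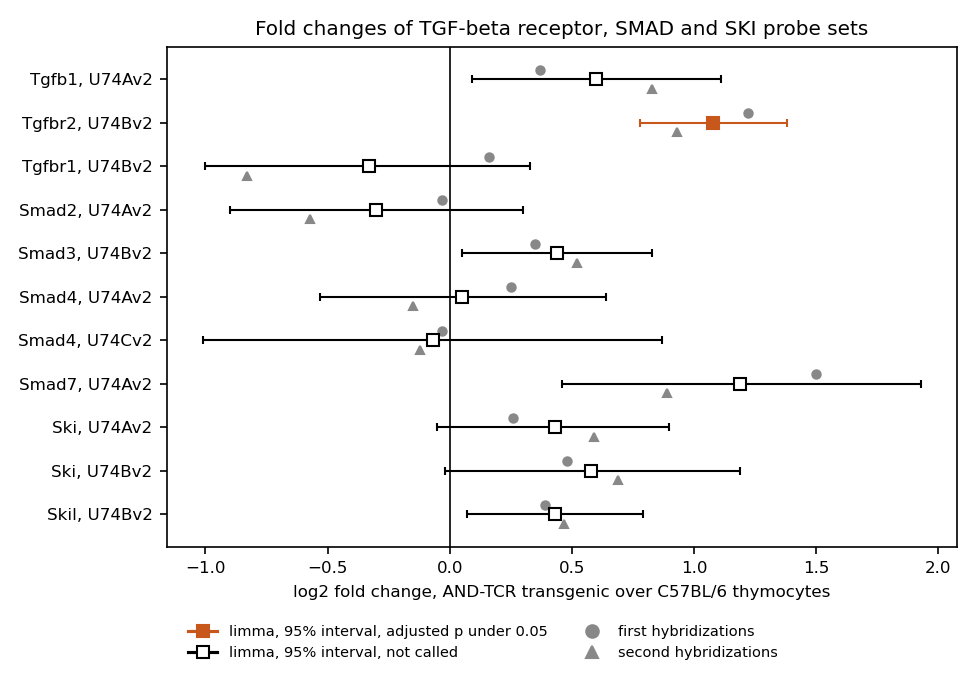
Log2 fold change, AND-TCR–transgenic over C57BL/6, of the 11 tested probe sets, with squares and bars for the limma estimate and its 95% interval, circles for the first and triangles for the second hybridizations. Tgfbr2, in orange, is the only called probe set, at 1.08, and Tgfbr1, Smad2 and the U74Cv2 probe set of Smad4 lie below 0.

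The other genes of the pathway were examined in 6 lists that hold no member, with 87 genes, of which 81 were on the arrays in 179 probe sets. Of these, 75 probe sets of 49 genes were tested. Limma called 0 of them in either direction (lowest adjusted p 0.0606). At an unadjusted p under 0.05, 10 were higher (13.3%) and 3 were lower (4.0%), beside 7.47% higher and 6.51% lower over all tested probe sets. The median log2 fold change was 0.13, against 0.02 over all tested probe sets. Among the 10 higher probe sets, those of Eng, Acvrl1, Gdf11 and Smurf2 passed the filter only through the AND-TCR–transgenic arrays. Cish, among the 3 lower, passed it only through the C57BL/6 arrays. These genes were named after their values were seen. The filter favors fold changes in those directions, so the shares and the median are descriptions only.

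The other receptors and coreceptors had the highest median of the 6 lists, 0.58 over 12 tested probe sets of 6 genes, with fold changes between 0.13 and 1.85, all positive, and 6 of them at an unadjusted p under 0.05. Only 3 of these probe sets were above the limit on all 4 arrays. The others passed the filter only through the AND-TCR–transgenic arrays, which favors positive fold changes. The signs and the median of this list are therefore descriptions only. Acvr1b, a type I receptor for activins, read 2767.2 and 2420.1 in AND-TCR–transgenic thymocytes and 1267.0 and 1117.8 in C57BL/6 thymocytes (log2 fold change 1.12, adjusted p = 0.174 from limma). Tgfbr3, the coreceptor betaglycan that presents TGF-beta to TGFBR2, read 5153.7 and 4656.4 in AND-TCR–transgenic thymocytes and 3923.2 and 3530.0 in C57BL/6 thymocytes in 1 of its 3 tested probe sets (log2 fold change 0.40, adjusted p = 0.348 from limma), and the other 2 had 0.73 on U74Bv2 and, with overlap between the groups, 0.15 on U74Cv2. Acvr2b, a type II receptor for activins, overlapped between groups (0.16, adjusted p = 0.929 from limma). Eng and Acvrl1, a coreceptor and a type I receptor best known from endothelial cells, were named after their values were seen. Eng read 1465.3 and 1607.4 in AND-TCR–transgenic thymocytes and 388.3 and 579.9 in C57BL/6 thymocytes, with 1 C57BL/6 array under the limit (at least 3.11-fold, adjusted p = 0.0802 from limma), and its second probe set was under the limit on every array. Acvrl1 had 4 tested probe sets, of which 3 had log2 fold changes of 0.39, 0.98 and 1.26 (adjusted p 0.561, 0.331 and 0.133 from limma). The remaining one read 1235.2 and 1875.4 in AND-TCR–transgenic thymocytes and -172.8 and 379.4 in C57BL/6 thymocytes, both under the limit (at least 3.62-fold, adjusted p = 0.0606 from limma).

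The remaining lists had medians near that of all tested probe sets. Among ligands and the proteins that activate them, 26 of 35 probe sets were under the limit on all arrays and the 6 tested had a median of 0.10. Furin, a protease that cleaves the TGF-beta precursor, had a log2 fold change of -0.34 (adjusted p = 0.648), and Itgav, a chain of the integrins that release latent TGF-beta, 0.01 (adjusted p = 0.995 from limma). Of the other SMADs, which carry or hold back BMP signals, Smad1 had 0.41, Smad5 had 0.20 and 0.04 in its 2 tested probe sets, and the inhibitory Smad6 had -0.19, with 0 of the 4 tested probe sets of the list at an unadjusted p under 0.05. The 26 tested probe sets of regulators of receptors and SMADs had a median of 0.11. Nedd4l, a ubiquitin ligase for SMAD2 and SMAD3, had -0.77 and -0.73 in its 2 tested probe sets (adjusted p 0.377 and 0.398 from limma), and 1 probe set of Ppm1a, a phosphatase of SMAD2 and SMAD3, had -0.71 (adjusted p = 0.333 from limma), while its other 3 tested probe sets lay between -0.03 and 0.64. Arrb2, an arrestin that takes part in the uptake of the receptors, had 0.55 (adjusted p = 0.305 from limma).

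The 19 tested probe sets of nuclear partners had a median of -0.01. E2f4, which joins SMAD3 in repressing Myc, read 6968.3 and 6104.2 in AND-TCR–transgenic thymocytes and 9244.0 and 16064.4 in C57BL/6 thymocytes (log2 fold change -0.90, adjusted p = 0.226 from limma). Tgif1, a corepressor, had -0.59 (adjusted p = 0.525), and Crebbp, a coactivator, had values between -0.12 and 0.49 in its 5 tested probe sets. The 8 tested probe sets of TGF-beta target genes had a median of -0.02, with 3 positive and 5 negative. Id3, an inhibitor of E proteins that also follows TCR signals, had 0.80 (1.74-fold, adjusted p = 0.136 from limma), Junb had 0.64 (adjusted p = 0.419) and Id2 had 0.42 (adjusted p = 0.495 from limma). Cish, named after its values were seen, had the lowest value, -0.86 (at least 1.81-fold lower, adjusted p = 0.305 from limma). It read 16.1, under the limit, and 550.9 in AND-TCR–transgenic thymocytes and 721.3 and 1053.4 in C57BL/6 thymocytes. Cdkn1a, Cdkn2b, Tgfbi and 3 further targets were under the limit on all arrays.

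**Figure D3:**
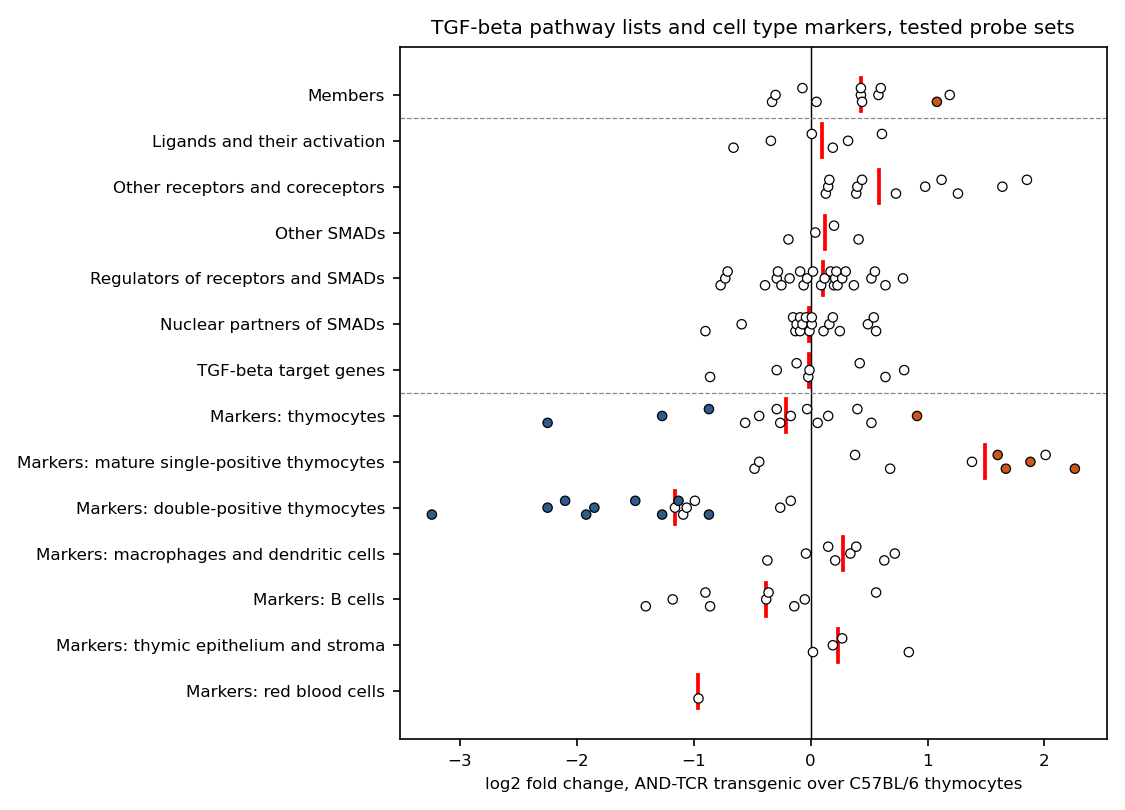
Log2 fold change, AND-TCR–transgenic over C57BL/6, of each tested probe set of the 9 genes (top row), the 6 pathway lists and the 7 marker lists, with red bars for medians, orange points for probe sets called higher, blue for those called lower and white for those not called. No pathway list has a colored point, while mature single-positive markers lie up to 2.26 and double-positive markers down to -3.24.

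Markers of thymocyte stages differed between the same arrays. The study had already reported differences in Gimap4 (its IAN1), Ccr7, Rag1 and Rag2 from its arrays, so their directions were known beforehand. Of 10 tested probe sets for markers of mature single-positive thymocytes 4 were called higher and 0 lower, with a median log2 fold change of 1.49. Of the 10, 8 were positive and 2 negative. The negative ones were Il7r (-0.44, adjusted p = 0.537 from limma) and 1 probe set of Dgka (-0.48, adjusted p = 0.562 from limma). Intensities were also summed over all probe sets of a marker list, tested or not, with negative readings counted as 0. The brightest probe sets contribute most to such a sum. For this list it was 90768 and 87447 in AND-TCR–transgenic thymocytes and 35729 and 34953 in C57BL/6 thymocytes. Of 15 tested probe sets for markers of double-positive thymocytes 0 were called higher and 9 lower, with a median of -1.16. The sum over their list was 85904 and 92105 in AND-TCR–transgenic thymocytes and 231014 and 225911 in C57BL/6 thymocytes. In bulk RNA, fewer cells of a type and less RNA per cell cannot be told apart, and the part of these stages in the reading of Tgfbr2 was not tested. For other cell types that a thymus holds no probe set was called. Markers of macrophages and dendritic cells summed to 10829 and 10574 in AND-TCR–transgenic thymocytes and to 7473 and 9836 in C57BL/6 thymocytes, with Adgre1, Fcer1g and Itgam under the limit on all arrays. Markers of thymic epithelium and stroma summed to 9249 and 12540 in AND-TCR–transgenic thymocytes and to 8264 and 9487 in C57BL/6 thymocytes, with Foxn1, Krt5, Krt14, Krt18, Col3a1 and Pdgfrb under the limit on all arrays. B cell markers summed to 27572 and 28587 in AND-TCR–transgenic thymocytes and to 36527 and 41959 in C57BL/6 thymocytes, of which 1 Ighm probe set gave 16012.4 and 16775.3 in AND-TCR–transgenic thymocytes and 19965.4 and 22304.6 in C57BL/6 thymocytes. Of the 9 tested B cell probe sets 8 had a negative log2 fold change and 4 had an unadjusted p under 0.05, with a median of -0.38. The single tested marker of red blood cells, Hba-a1, had a log2 fold change of -0.96 (adjusted p = 0.106 from limma), and Alas2 and Slc4a1 were under the limit on all arrays. The part of these cells in the readings of the 9 genes was not tested.

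Among 3153 probe sets of U74Bv2 with 1 gene symbol and readings above the limit on all 4 arrays, the pattern most like that of Tgfbr2 was that of Lfng, a glycosyltransferase that modifies Notch receptors. The root mean square difference of their centered log2 values over the 4 arrays was 0.0454. Lfng read 4389.9 and 4110.1 in AND-TCR–transgenic thymocytes and 1780.7 and 2191.1 in C57BL/6 thymocytes (log2 fold change 1.10, adjusted p = 0.103 from limma). Tbc1d9b and 4930523C07Rik came next, at 0.0563 and 0.0731, with log2 fold changes of 1.01 and 1.09. The 4 arrays form 2 groups, and the likeness is given as a description.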

How the data were processed

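Total RNA of thymocytes had been labeled with biotin and hybridized by the authors to U74Av2, U74Bv2 and U74Cv2 arrays, 12 in all, and the scans analyzed with Microarray Suite software. What was deposited are linear intensities, some negative. Their type and scaling target were not given in the sources used here, and only the outcome is visible. The trimmed mean of every array (lowest and highest 2% dropped) was 1000.4 to 1000.9, as scaling by the authors would leave it.

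Each array was brought to the mean trimmed mean of its array type (factors 0.99995 to 1.00004). The noise SD was taken as the median absolute negative reading times 1.4826 (210.4, 434.7 and 789.4 on U74Av2, U74Bv2 and U74Cv2). A multiple of 2 of this SD served as detection limit and as floor of the log2 values, so a fold against a group with an array under the limit is given as at least its size. Each array type's 66 control probe sets were left out. The test was that of limma 3.58.1 under R 4.3.3 (eBayes after lmFit, with the prior variance following intensity) separately on each array type and adjusted over the 12844 tested probe sets (5573, 4583 and 2688). The script was tested on simulated data. The number of arrays limits the precision. Array types were scaled separately. Genes were compared between groups within a probe set. The sums over marker lists add probe sets of several array types, including untested ones near the noise, and are descriptions only. Python 3.11.15 and matplotlib 3.10.9 drew the figures.

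Gene names came from the platform annotation, which gave 1 symbol for 29197, several for 724 and none for 6978. Gene identifiers of RefSeq (GRCm38.p6) matched 29110 and changed 0 symbols. Members and lists were chosen with earlier results of these data known. The genes named are all members and, of each pathway list, any called gene and the 3 with the largest absolute fold change among those whose readings exceeded the limit on every array, with the 3 probe sets most like a called member and, for marker lists, counts and a few genes. The text says where others were added. Listed genes that the annotation used here does not name were not analysed here. Arrays with the same hybridization number were run on the same day, and the 2 numbers on different days. On U74Cv2 the fluidics station also followed the number, 3 for the first and 4 for the second. On U74Av2 the chip lot followed it. The alternatives were a block for the hybridization number, other floors and filters, no trend, quantile normalization, a generalized log2 and leaving out each hybridization in turn.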

Additional observations from a re-analysis of the deposited data

How the results depend on the processing

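Over all tested probe sets limma called 62 higher and 73 lower. With the hybridization number as a replicate block it called 155 and 151, with the floor at 1 noise SD 130 and 140, with no filter 414 and 402, with no trend 1 and 9, and with a generalized log2 111 and 127. Without any 1 of the 4 hybridizations the number of calls was 0 in either direction (range 0 to 0), although between 1290 and 1968 probe sets then had an unadjusted p under 0.05, and 2 to 4 of them were of the 9 genes. Without a filter, 52.8% of the probe sets were under the limit on all 4 arrays, and limma warned that its prior variance may then be unreliable. Deviations of same-numbered arrays from their group means correlated at 0.0354, -0.119 and -0.232 on U74Av2, U74Bv2 and U74Cv2, so the numbers were not taken to pair the samples. A block that crossed the numbers between the groups, chosen after seeing the data, called 229 higher and 226 lower. Tgfbr2 was past the threshold in 6 of the 7 alternatives that leave out no hybridization. The member count of 1 was 0 with no trend and between 0 and 0 without a hybridization, and the block changed no call among the members. In the other pathway genes, the block called 2 higher (Eng, adjusted p = 0.0306, and Acvrl1, adjusted p = 0.0138 from limma), the floor at 1 noise SD 1 (Acvrl1) and the crossed block 4, while no filter and the crossed block each called 1 lower (E2f4). Among the markers, the block called 1 B cell probe set lower (Ighm, log2 fold change -1.41, adjusted p = 0.00172 from limma) and Hba-a1 (adjusted p = 0.00877 from limma). With floor and filter at 4 noise SDs, which draws dim readings together, log2 fold changes shrank by over 1.5 times for Smad7 (0.39), Acvr1b (0.57), 1 probe set each of Nedd4l (-0.16) and Ppm1a (-0.32), Junb (0.22), Eng (0.87) and 2 probe sets of Acvrl1 (0.85 and 0.33). Some fold changes that were not called changed sign, or for Tgfbr1 reached 0.00, when a hybridization was left out. Smad4 lay between -0.12 and 0.23 on U74Av2 and between -0.4 and 0.25 on U74Cv2, Tgfbr1 between -0.67 and 0.00, Itgav between -0.27 and 0.29 (and -0.01 with quantile normalization), Smad1 between -0.02 and 0.84 and Acvr2b between -0.62 and 0.94. The cause of these changes was not tested.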
